A study of Mus musculus with 2 samples.

Results

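The genes of the proteins of the mitochondrial ribosome were taken as those whose symbol starts with Mrpl (large subunit) or Mrps (small subunit) followed by a number, on probes that the platform's annotation assigns to 1 gene. This gave 68 probes for 68 genes, 1 probe each. Mrpl30 had no value on either array, which left 67 genes with a value on both, of 14150 genes in all. By symbol 43 belong to the large and 24 to the small subunit. Each gene rests on a single probe, so no second probe checks any value.

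The mitochondrial ribosome is the machine that translates the few messages of the mitochondrial genome, all of which encode subunits of the respiratory chain and the ATP synthase. Its RNAs come from mitochondrial DNA, but its proteins are encoded in the nucleus, made in the cytosol and imported. The large subunit joins amino acids and holds the exit tunnel of the new chain, and the small subunit binds and decodes the message. Part of each subunit has counterparts in the bacterial ribosome and part, called mitochondrion-specific here, does not. T cells enlarge their mitochondria and their translation machinery when they are activated and divide.

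Effector CD8+ T cells of the mouse were stimulated in culture either 1 or 2 times, and the RNA of both stages was set against each other on 2-colour microarrays. The pmel transgene, a T cell receptor specific for the melanocyte antigen gp100, is shared by both stages. Channel 1 held the cells after 1 stimulation and channel 2 the cells after 2, and a second array repeated the first. Age, culture conditions and the number of animals are not given in the labels. Whether new cells were used for the repeat is not given, so errors over the 2 arrays (n = 2) may be technical.

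The values are log ratios between the channels, taken as base 2. Neither the base nor the numerator is stated in the sources used here. By the order of the title and the channels, a negative value probably means more RNA after 2 stimulations and a positive value more after 1; with the opposite order the sides swap. No spot intensities were used, so no gene has a level, only a ratio, and the arrays were already centred close to 0, with medians of 0.01 and 0.02 over all probes. Dye bias that repeats on both arrays cannot be told apart from a difference in RNA. In RNA of whole cultures, more cells of a kind and more RNA per cell cannot be told apart either.

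The members leaned to the negative side, and more so on array 2. A value below 0 on both arrays was found for 32 of 67 genes (47.8%, against 33.6% of all genes) and a value above 0 on both for 8 (11.9%, against 29.6%), while the other 27 did not keep 1 side. Their median mean log2 ratio was -0.16, against -0.02 for all genes, and their quartiles were -0.353 and -0.0225. On array 1 the median was -0.06, with 40 members negative (59.7%, against 51.6% of all genes) and 26 positive. On array 2 it was -0.26, with 51 members negative (76.1%, against 51.0%) and 16 positive. In 47 of 67 members (70.1%) the value on array 2 was the lower one, against 51.1% of all genes. The lean was thus larger on array 2 than on array 1.

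No member passed limma's moderated test after Benjamini-Hochberg adjustment over the 14150 genes, where 0 (0%) passed in all. The smallest adjusted p of a member was 0.182 (limma), and without limma's moderation 1 of 67 members passed, where 146 of all genes (1.03%) did. That member was Mrpl9, whose values on the arrays are equal, as they are for 145 of those 146 genes. At an unadjusted p under 0.05 in the moderated limma fit, 11 members were negative (16.4%, against 10.3% of all genes) and 2 positive (2.99%, against 5.86%). The median half-width of a gene's 95% confidence interval was 0.389, wider than most of the members' means. Single members are therefore given as values with their spread.

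The plot of all members by array shows the 2 values of each gene, ordered by the mean.

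**Figure D1:**
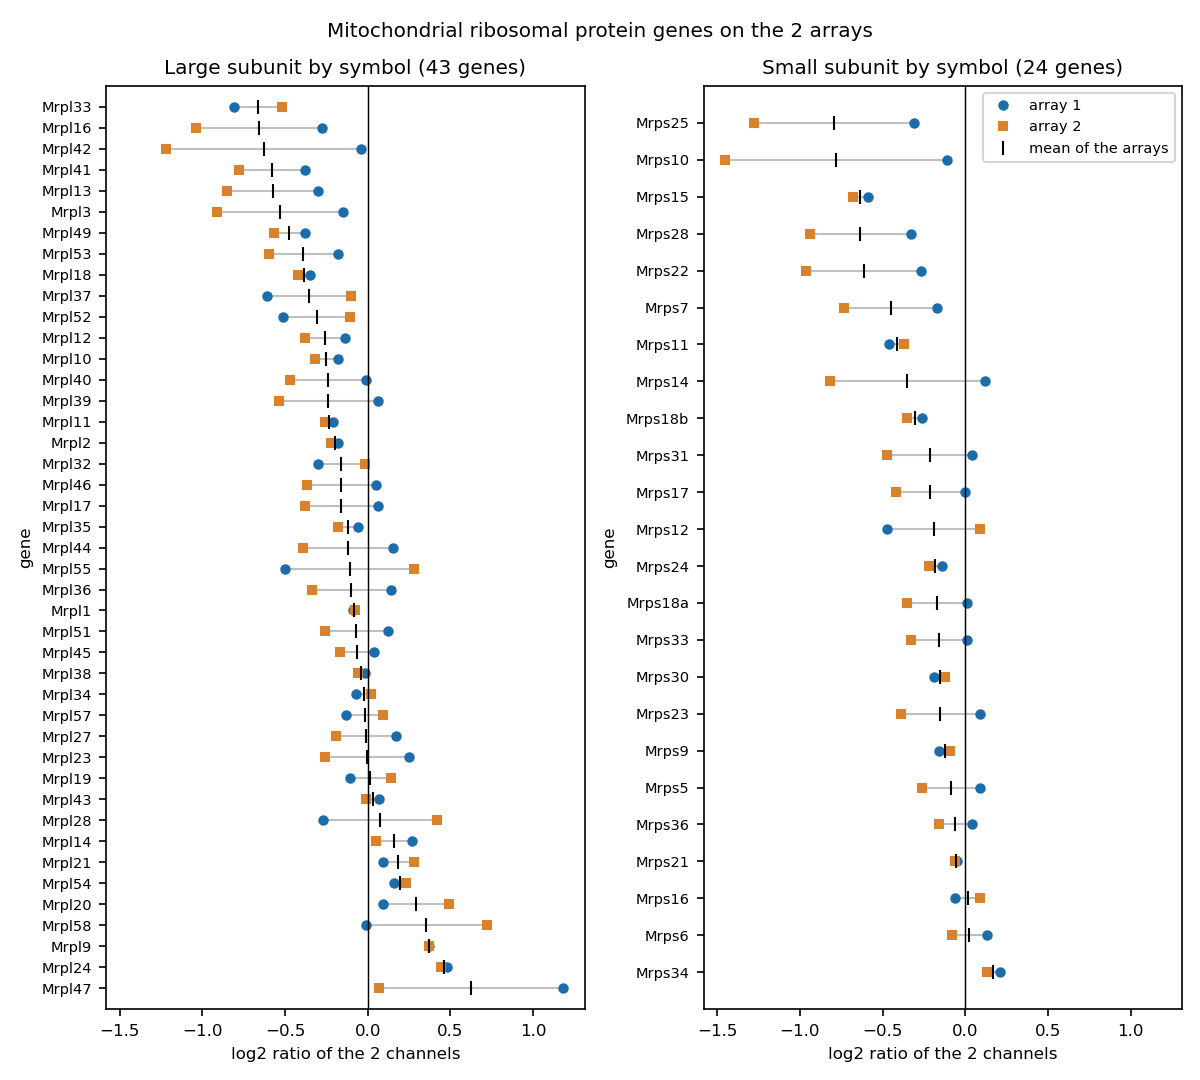
Log2 ratio of each of the 43 large and 24 small subunit genes on array 1 (circles) and array 2 (squares), with a tick at the mean and a line joining the 2 arrays. Means run from -0.665 (Mrpl33) to 0.625 (Mrpl47) in the large subunit and from -0.795 (Mrps25) to 0.17 (Mrps34) in the small subunit.

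Proteins of this ribosome are made from nuclear genes, whose promoters are known to hold sites for the ETS factor GABP, for NRF1 and for YY1. RefSeq promoter windows of build GRCm38.p6, each of 300 bases, from 250 before to 50 after the start, were matched for 61 of the 67 genes. Mrpl13, Mrpl19, Mrpl38, Mrpl54, Mrps28 and Mrps34 had no match. The windows were searched on both strands for 4 short strings of letters. The ETS letters CCGGAAG were found for 21 of 61 members (34.4%), against 15% of 11019 genes on the arrays with a window and 8.86% of all 32851 windows. The YY1 letters AAGATGGC were found for 11 members (18%, against 4.17% and 2.75%). The NRF1 letters GCGCATGC, which overlap their own reverse complement, were found for 7 (11.5%, against 4.75% and 2.71%). CACGTG, the E-box read by MYC and related factors, was found for 4 (6.56%, against 10.3% and 7.15%). A site of the ETS letters can run into a site of the YY1 letters, since AAG ends the first and starts the second. The E-box letters are their own reverse complement.

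Means were negative for 53 of all 67 members and for 7487 of all 14150 genes. They were negative for 17 and positive for 4 of the members with the ETS letters, and for 6 and 1 of those with the NRF1 letters. All 11 members with the YY1 letters had negative means, from -0.63 to -0.10. Of the 4 with the E-box letters 3 were negative. The median log2 ratio was -0.16 for members with the ETS letters and -0.17 for those without, -0.19 and -0.153 for YY1, -0.24 and -0.158 for NRF1, and -0.15 and -0.16 for the E-box. Small subunit genes had the ETS letters in 8 of 22 and large subunit genes in 13 of 39. These are letter matches, not measured binding. The 150 bases before the start are shown for 5 genes, 5′ to 3′ on the strand of the gene, with the searched letters, on either strand, in capitals. Mrps15, which has none of the 4 strings there, is the only member past 1.5-fold on both arrays. Mrpl33 and Mrpl9 hold the NRF1 letters and lie on opposite sides of the ratio. Mrps22 and Mrpl58 hold the ETS letters and have means on opposite sides.
Mrps15 (chr4:126046778-126046927, plus strand): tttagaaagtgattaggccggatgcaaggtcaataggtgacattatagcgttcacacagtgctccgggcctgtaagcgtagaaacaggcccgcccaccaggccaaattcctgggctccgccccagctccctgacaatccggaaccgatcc
Mrpl33 (chr5:31613801-31613950, plus strand): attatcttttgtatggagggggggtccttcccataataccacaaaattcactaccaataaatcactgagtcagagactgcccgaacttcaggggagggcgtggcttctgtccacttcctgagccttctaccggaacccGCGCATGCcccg
Mrpl9 (chr3:94443186-94443335, plus strand): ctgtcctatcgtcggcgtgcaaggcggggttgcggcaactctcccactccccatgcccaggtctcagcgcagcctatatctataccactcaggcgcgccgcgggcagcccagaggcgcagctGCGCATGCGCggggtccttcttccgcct
Mrps22 (chr9:98601680-98601829, minus strand): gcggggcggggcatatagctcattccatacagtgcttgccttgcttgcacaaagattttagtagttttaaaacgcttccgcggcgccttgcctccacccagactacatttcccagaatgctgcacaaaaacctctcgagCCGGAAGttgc
Mrpl58 (chr11:115403602-115403751, plus strand): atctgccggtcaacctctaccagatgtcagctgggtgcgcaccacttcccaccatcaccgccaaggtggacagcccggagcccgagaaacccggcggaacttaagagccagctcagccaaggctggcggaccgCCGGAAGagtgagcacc

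Of the genes of the factors behind these strings, Gabpa, Nrf1 and Yy1 stayed below 0 and Gabpb1 above. Gabpa, the DNA-binding chain of GABP, read -0.45 and -0.83 on arrays 1 and 2, and its partner gene Gabpb1 0.25 and 0.19. Nrf1 read -0.20 and -0.26 and Yy1 -0.13 and -0.04. Of 9 measured regulators of mitochondrial biogenesis and of growth, 6 stayed negative and 1 positive, that is, on both arrays. The regulators' shares were 66.7% and 11.1%, against 33.6% and 29.6% of all genes. The farthest were Pprc1, a coactivator of these factors, at -1.15 ± 0.78, and Mycn, a relative of Myc, at -1.04 ± 0.48 (both SD, n = 2). Myc itself turned sign, with 0.30 and -1.05.

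In the large subunit both arrays were negative for 20 of 43 genes and positive for 7, and the median was -0.12. In the small subunit 12 of 24 were negative and 1 was positive, with a median of -0.185. The large subunit median was higher by 0.065, and this difference was 0.025 on array 1 and 0.16 on array 2 (SD over the arrays 0.0955). The value of 0.065 comes from medians of the genes' means, so it is not the average of the 2 array differences. It is smaller than the SD of those 2 differences. The share negative on both arrays was 46.5% in the large and 50% in the small subunit, against 33.6% of all genes. The share positive was 16.3% and 4.17%, against 29.6% of all genes. With means in place of medians the large subunit lay 0.145 higher, 0.0593 on array 1 and 0.230 on array 2 (SD over the arrays 0.121). Both arrays gave the same direction. Genes of a subunit are not replicates and 2 arrays cannot give an exact two-sided permutation p below 0.5, so no test of this difference was made.

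A symbol does not always tell the subunit. Mrps18a and Mrps30 carry small-subunit names but their proteins sit in the large subunit, and the Mrps36 protein is now placed in the oxoglutarate dehydrogenase complex. Mrps18a read 0.01 and -0.35, Mrps30 -0.19 and -0.12 and Mrps36 0.04 and -0.16. Counted by place in the ribosome, without Mrps36, there were 45 large and 21 small subunit genes, with medians of -0.12 and -0.21. The difference was then 0.09, with 0.05 and 0.18 on arrays 1 and 2. Mrpl42, once assigned to both subunits and now to the large one, read -0.04 and -1.22, the widest gap between the arrays in the large subunit.

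The scatter of array 1 against array 2 sets the members among all genes.

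**Figure D2:**
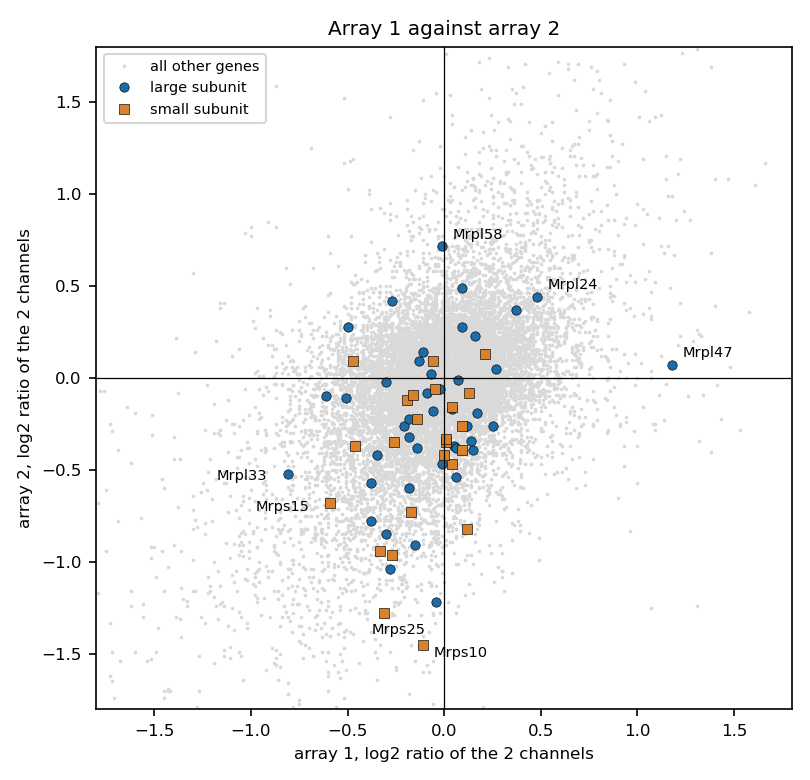
Log2 ratio on array 1 (x axis) against array 2 (y axis) for large subunit members (circles), small subunit members (squares) and all other genes (grey), with 107 genes lying outside the axes. Most members spread downward on array 2 around 0 on array 1, and Mrpl47 stands alone at 1.18 on array 1.

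Across the 67 members the 2 arrays correlated with Pearson's r = 0.303, against 0.519 across all 14150 genes. The points share the 2 arrays and their dyes, and genes are not independent. Signs were the same for 59.7% of members and 63.2% of all genes. The spread of the difference between arrays was alike, with an SD of 0.441 for members and 0.416 for all genes.

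Among large subunit proteins with bacterial counterparts, Mrpl33 lay lowest. It read -0.81 on array 1 and -0.52 on array 2, a mean of -0.665 ± 0.21 (SD, n = 2; 1.59-fold; limma adjusted p of 0.190). Mrpl33 was the only large subunit gene beyond 0.5 below 0 on both arrays. Mrpl16, whose protein lies near the site where the incoming tRNA is held, read -0.28 and -1.04. Mrpl13 read -0.30 and -0.85, and Mrpl3, which reaches toward the peptidyl transferase centre, -0.15 and -0.91. In these 3 genes array 2 was lower than array 1 by more than 0.5. Mrpl18, which in bacteria binds the smallest ribosomal RNA, agreed between arrays at -0.35 and -0.42.

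The highest members were also large subunit genes with bacterial counterparts. Mrpl47, which sits at the mouth of the exit tunnel, had a mean of 0.625 ± 0.78 (SD, n = 2), but it rests on array 1 alone, with 1.18 there and 0.07 on array 2. Mrpl24, another protein of the tunnel mouth, was even between arrays at 0.48 and 0.44, a mean of 0.46 ± 0.03 (SD, n = 2; limma adjusted p of 0.243). Mrpl9 read 0.37 on both. Mrpl24 and Mrpl9 were the 2 positive members at an unadjusted p under 0.05 in limma's fit.

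Smaller positive values on both arrays were seen for Mrpl20 (0.09 and 0.49), Mrpl21 (0.09 and 0.28) and Mrpl14 (0.27 and 0.05). Mrpl28 turned sign, with -0.27 and 0.42. Mrpl1, part of the mobile stalk by which spent tRNA leaves, was close to 0 on both, with -0.09 and -0.08. Apart from genes described by their place in the ribosome, the sign also turned for Mrpl19, Mrpl34 and Mrpl36, with means of 0.015, -0.025 and -0.10. Mrpl32 and Mrpl35 were negative on both, with means of -0.16 and -0.12. Over the whole class of 26 genes, whose median was -0.105, both arrays were negative for 12 and positive for 6. The class shares were 46.2% and 23.1%, against 33.6% and 29.6% of all genes.

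Of the large subunit proteins with no counterpart in the bacterial ribosome, Mrpl42 and Mrpl41 had the lowest means. Mrpl41 read -0.38 and -0.78, a mean of -0.58 ± 0.28, and Mrpl49 -0.38 and -0.57, a mean of -0.475 ± 0.13 (both SD, n = 2). Mrpl53 read -0.18 and -0.60. All 3 were below 0 on both arrays, with array 2 lower. Mrpl37 ran the other way, with -0.61 and -0.10, as did Mrpl52 with -0.51 and -0.11. Mrpl58, a hydrolase that frees chains from stalled ribosomes and that became a part of the large subunit, read -0.01 and 0.72. Mrpl54 was the 1 gene of this class positive on both arrays, at 0.16 and 0.23. Mrpl43, Mrpl51 and Mrpl57 lay near 0, with means of 0.03, -0.07 and -0.02. With Mrps18a and Mrps30 the class held 19 genes, of which 9 stayed negative and 1 positive. Its shares were 47.4% and 5.26%, against 33.6% and 29.6% of all genes. The class median was -0.16, from -0.01 on array 1 and -0.26 on array 2.

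In the small subunit Mrps15 was the member with the smallest limma p. Its protein binds early to the ribosomal RNA in bacteria. It read -0.59 and -0.68, a mean of -0.635 ± 0.06 (SD, n = 2; 1.55-fold; 95% confidence interval -1.0 to -0.27; limma adjusted p of 0.182). It was the only 1 of the 67 members at least 1.5-fold from a ratio of 1 on both arrays on the same side, a threshold of 0.585 on the log2 scale. That is 1 negative member, where 3.0% of all genes passed, and 0 positive members, where 1.24% passed. Mrps15 lies just inside the threshold on array 1, and Mrpl33 lies just outside it on array 2. On array 1 alone 4 members passed on either side (5.97%, against 9.62% of all genes), and on array 2 alone 14 (20.9%, against 14.6%).

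The lowest means of all members belonged to Mrps25, a mitochondrion-specific protein, and Mrps10, a protein of the head of the subunit. Mrps25 read -0.31 and -1.28, and its mean of -0.795 ± 0.69 (SD, n = 2) was number 432 from the lowest among 14150 genes. Mrps10 read -0.11 and -1.45, with a mean of -0.78 ± 0.95 (SD, n = 2). Both means rest on array 2, and the confidence interval of Mrps10 reached from -1.69 to 0.13. Mrps28 read -0.33 and -0.94, and Mrps22, also specific to mitochondria, -0.27 and -0.96. Mrps7, a head protein beside the exiting tRNA, read -0.17 and -0.73. Each of these 5 genes was negative on both arrays and lower on array 2.

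Mrps11 agreed closely between arrays, at -0.46 and -0.37. Its upstream stretch overlaps that of Mrpl46, which is read from the opposite strand of chromosome 7 (GRCm38.p6) and had 0.05 and -0.37, so the 2 neighbours were alike on array 2 only. The paralog gene Mrps18b was also even, at -0.26 and -0.35, while Mrps18a was below 0 on array 2 alone. The test of a difference between the 2 was not made. Mrps14 (0.12 and -0.82) and Mrps12 (-0.47 and 0.09) turned sign in opposite ways. Mrps12, which takes part in decoding, was with Mrps16 (-0.06 and 0.09) and Mrps34 one of 3 small subunit genes above 0 on array 2. Mrps34 was the single small subunit gene positive on both arrays, at 0.21 and 0.13. Mrps24, Mrps9 and Mrps21 were negative on both with means of -0.18, -0.125 and -0.055. Mrps5, Mrps23, Mrps31, Mrps33 and Mrps6 were positive on array 1 and negative on array 2, and Mrps17 was 0.00 and -0.42. Of 24 small subunit genes by symbol, 21 were negative on array 2 (87.5%, against 51.0% of all genes). On array 1 14 were negative (58.3%, against 51.6%).

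The plot by class sets the 4 combinations of subunit and origin side by side.

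**Figure D3:**
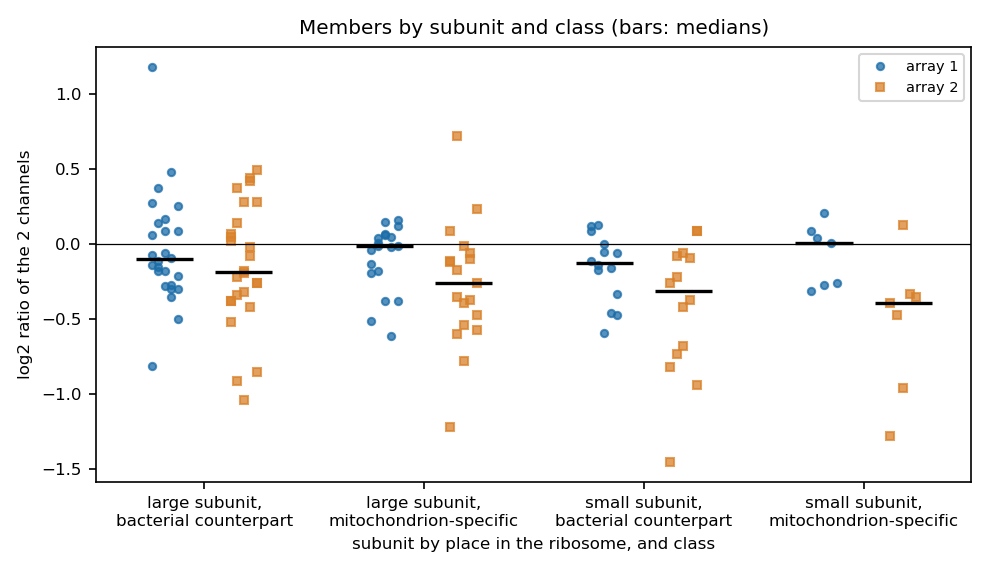
Log2 ratio of each member on array 1 (circles) and array 2 (squares), by subunit and by whether the protein has a bacterial counterpart, with bars at the medians; Mrps36 is left out. In each of the 4 classes the median on array 2 lies below that on array 1, from -0.185 against -0.10 in the first class to -0.39 against 0.01 in the last.

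By origin the medians of the genes' means lay close together, while those on each array lay farther apart. On array 1 the median was -0.11 for proteins with bacterial counterparts and -0.01 for mitochondrion-specific ones. On array 2 these medians were -0.22 and -0.35, so the order turned. The classes follow the current names of the proteins, so Mrps18a and Mrps18b, though relatives of bacterial S18, count as mitochondrion-specific. Proteins with bacterial counterparts had a median of -0.143 over 40 genes, of which 20 stayed negative (50%) and 6 positive (15%). Mitochondrion-specific proteins had a median of -0.165 over 26 genes, 12 negative (46.2%) and 2 positive (7.69%). All genes had 33.6% negative and 29.6% positive. In the small subunit the 14 genes with counterparts had a median of -0.20 with 8 negative (57.1%) and 0 positive. The 7 specific genes had -0.215 with 3 negative (42.9%) and 1 positive (14.3%). No test of these differences was made.

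By place in the ribosome, the genes of the exit tunnel and of the core lay on opposite sides of 0 on array 1. The 3 measured proteins of the core near the peptidyl transferase centre, Mrpl2, Mrpl3 and Mrpl16, stayed below 0, and their median was -0.53. Mrpl2 was close to even at -0.18 and -0.22. The 3 proteins of the factor-binding stalk and its base were also negative on both. For comparison, 33.6% of all genes and 47.8% of members were negative on both arrays. Mrpl10 read -0.18 and -0.32, Mrpl11 -0.21 and -0.26 and Mrpl12, which also binds the mitochondrial RNA polymerase, -0.14 and -0.38. The stalk genes lay within 0.025 of each other in their means, from -0.26 to -0.235.

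Around the exit tunnel both arrays were negative for 0 of 7 genes, against 33.6% of all genes. They were positive for 2 (28.6%), close to the 29.6% of all genes. All 7 were above 0 on array 1, where the range was 0.04 to 1.18, and 5 of 7 were below 0 on array 2. Of all genes 51.6% were below 0 on array 1 and 51.0% on array 2. Beside Mrpl47 and Mrpl24 these were Mrpl17 (0.06 and -0.38), Mrpl23 (0.25 and -0.26) and Mrpl39 (0.06 and -0.54), Mrpl44 (0.15 and -0.39) and Mrpl45, which holds the ribosome to the inner membrane (0.04 and -0.17). In all 7 array 2 was the lower one, against 70.1% of members and 51.1% of all genes. In the central protuberance, at the top of the subunit, both arrays were negative for 4 of 7 genes (57.1%) and positive for 0, and the median was -0.16. Mrpl40 (-0.01 and -0.47) and Mrpl38 (-0.02 and -0.06) were negative, like Mrpl18 and Mrpl52. Mrpl46 (0.05 and -0.37), Mrpl27 (0.17 and -0.19) and Mrpl55 (-0.50 and 0.28) turned sign. In the head of the small subunit all 7 genes, among them Mrps31 (0.04 and -0.47) and Mrps33 (0.01 and -0.33), were below 0 on array 2, with a median of -0.215 for the means. These groups are small, and no test between them was made.

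Of the proteins of this ribosome that go by other symbols, 3 were measured. Dap3, a GTP-binding protein of the small subunit also linked to cell death, read -0.13 and -0.60. Chchd1 read -0.23 and -0.79 and Ptcd3 0.17 and -0.12. All 3 belong to the small subunit and were negative on array 2, and with them its median was -0.19 over 27 genes.

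The other parts of mitochondrial gene expression did not share the members' side throughout. For the lists that follow, 33.6% of all genes stayed negative and 29.6% positive on both arrays. Of 10 measured genes for assembly of the ribosome and modification of its RNA, 3 stayed negative and 5 positive (median 0.0675). The RNA methyltransferase gene Nsun4, which acts on the small subunit's RNA, read 0.53 and 0.45, and Fastkd2, which is needed for the large subunit, -0.41 and -0.82. Of 7 mitochondrial aminoacyl-tRNA synthetases 2 stayed negative and 4 positive (median 0.145). Of 6 translation factors 3 stayed negative and 1 positive (median -0.075), and the elongation factor gene Gfm1 read -0.41 and -0.52. Of 11 genes of mitochondrial DNA and transcription 4 were negative and 2 positive, and Polg2, an accessory chain of the mitochondrial DNA polymerase, stood at 0.79 ± 0.25 (SD, n = 2). In each of these 4 lists 0 genes passed limma's test after adjustment. Since 0 of all 14150 genes (0%) passed, this does not set the lists apart.

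A pair of lists of imported mitochondrial machinery lay on the members' side. Of 28 measured import genes 17 stayed negative and 2 positive. Their median was -0.333, from -0.125 on array 1 and -0.51 on array 2. Hspd1, the matrix chaperonin, stood at -1.265 ± 0.64, and Timm50, a receptor of the inner membrane translocase, at -0.695 ± 0.13 (both SD, n = 2). Of 73 nuclear-encoded subunits of the respiratory chain and ATP synthase 45 stayed negative (61.6%) and 7 positive (9.59%). Their median was -0.225, from -0.13 and -0.29. Cox5a of cytochrome oxidase read -0.84 and -1.30, and Ndufa1 of complex I -0.62 and -0.76. Array 2 was the lower one for both list medians, as for the members.

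Cytosolic ribosomal proteins, the counterparts of the members outside mitochondria, lay on the other side. Of 67 genes 11 stayed negative (16.4%) and 31 positive (46.3%). Their median was 0.10, from 0.13 on array 1 and 0.125 on array 2. The members had 47.8% and 11.9%, and all genes 33.6% and 29.6%. The difference between the 2 kinds of ribosome was seen on each array, with members' medians of -0.06 and -0.26, and was not tested, since genes are not replicates.

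**Figure D4:**
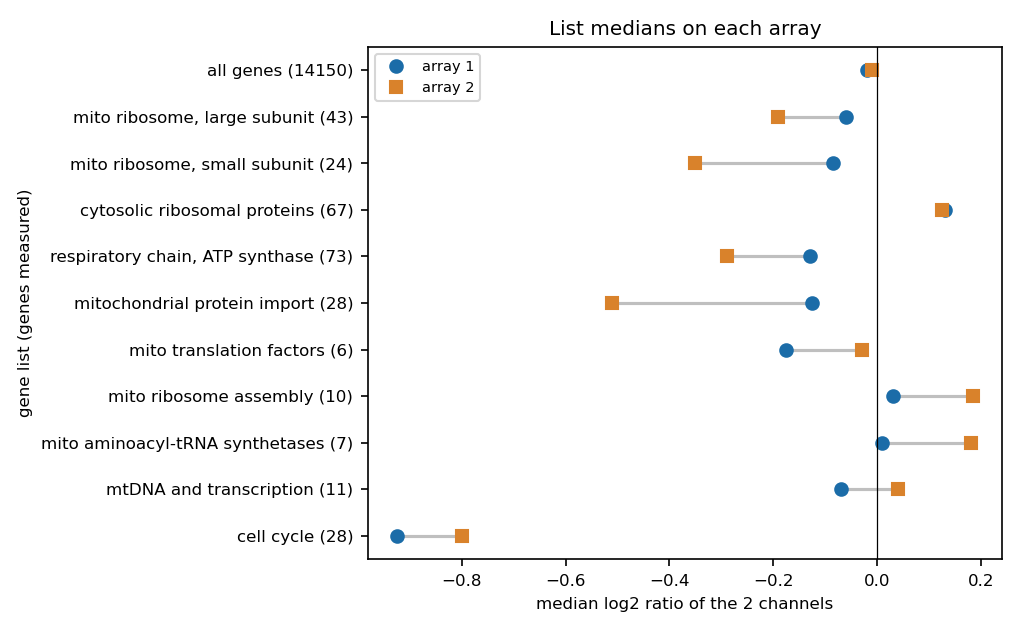
Median log2 ratio of each gene list on array 1 (circles) and array 2 (squares), with the number of genes measured in brackets. The 2 subunits of the mitochondrial ribosome lie between all genes and the import list on array 2, and cytosolic ribosomal proteins lie above 0 on both arrays.

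Cell cycle genes lay farther on the negative side than the members, since 24 of 28 stayed negative (85.7%) and 0 positive. Of all genes 33.6% stayed negative and 29.6% positive. At least 1.5-fold on the negative side of both arrays were 17 of the 28, where 3.0% of all genes were. Their median was -0.95, and examples are Ccna2 at -1.525 and Rrm2 at -1.34. Most markers of T cells and B cells lay on the opposite side. Of 9 T cell markers 7 stayed positive and 0 negative (median 0.275), and of 7 B cell markers 5 stayed positive and 0 negative (median 0.33), with Cd79b at 0.67 and 1.62. Cd5 read 0.64 and 1.68, Cd8a read 0.37 and 0.90 as the mean of its 2 probes and Cd4 -0.11 and 0.02. Thy1, the 1 T cell marker with a negative mean, read -0.365 and 0.06 over 2 probes. Ratios do not show whether a marker is present, so the labelled cell type could not be checked by level. Myeloid markers had a median of 0.06 over 6 genes, with means from -0.375 for Cd14 to 0.835 for Fcgr1. Erythroid markers had a median of 0.01 over 2. The 4 NK cell markers had a median of 0.0188 and split, with means of -1.325 for Klrb1c, -0.26 for Ncr1, 0.46 for Klra8 and 0.2975 for Klra4. The part that cell division or other cells have in the members' values was not tested.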

How the data were processed

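Each of the 2 arrays carried total RNA of both stages, 1 per channel, per the labels. The authors deposited 1 signed value per probe and array, used here as log2 ratios. The scanner, background correction, normalization and filters are not given in the sources used here. Gene symbols are those of the platform annotation. Probes with 1 symbol and both values (15653 of 21919) were averaged to 14150 genes. limma 3.58.1 in R 4.3.3 fitted an intercept over both arrays against 0 (two-sided), with 1 residual degree of freedom, a prior of 3.55 and Benjamini-Hochberg adjustment over all genes at 0.05. The fit was tested on simulated data. Lists are described by counts and medians, with no test. Members and lists were chosen with earlier results of these data known. Members named in full were the lowest 8 and highest 6 of each subunit, those past 1.5-fold, the position groups and genes whose symbol and place differ. From related lists, genes past 1.5-fold were named (examples for the cell cycle). Gabpa, Gabpb1, Nrf1, Yy1, Myc, Nsun4, Fastkd2, Gfm1, Cd8a, Cd4, Thy1, Cd14, Fcgr1, Ncr1, Klra8 and Klra4 were added after their values were seen. Assembly factors and pseudogenes were left out of the respiratory list. Promoter windows came from RefSeq's table for GRCm38.p6. Alternatives were centring, quantile normalization, other probe summaries, other priors, another fit level, other thresholds, other memberships and leaving out each array.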

Additional observations from a re-analysis of the deposited data

How the results depend on the processing

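On array 2 alone (without replicate 1) 51 members were negative and 16 positive, and on array 1 alone (without replicate 2) 40 and 26, against 32 and 8 on both. The count past 1.5-fold, 1 on both arrays, ranged from 4 on array 1 to 14 on array 2, so it depends on which arrays are asked for. It was 3 if the values are natural logs (Mrps15, Mrpl33 and Mrpl24) and 0 at 2-fold. limma without moderation called 1 member, Mrpl9, whose values on the 2 arrays are equal. In the moderated fit 0 were called, and 13 of 67 members had an unadjusted p under 0.05, where 2291 of all 14150 genes did. After centring 12 members did, and Mrpl9 had an unadjusted limma p of 0.0521. The other limma settings called 0. The higher median of the large subunit kept its direction under every alternative run, from 0.025 on array 1 alone to 0.16 on array 2 alone. Several of these runs could not have changed it. Centring takes the same amount from both subunits, and probe summaries do not touch genes with 1 probe. The main difference of 0.065 uses the same 2 arrays, averaged gene by gene before the medians are taken. It is smaller than the SD of the 2 single-array differences, 0.0955, but is not their average. Centring each array on its median and quantile normalization turned the sign of 0 of 67 members' means, and centring put 2 at 0. Other probe summaries left the members' values as they were, since each has 1 probe. Each ratio sets both stages on 1 array against each other, so the fit against 0 is already paired by array, and no further block was fitted. Signal over background is unknown, and the 2 arrays limit the precision.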
